A study of Homo sapiens with 16 samples.

Results

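Genes whose symbol in the expression table is LINC followed only by digits, the naming pattern of long intergenic noncoding RNAs, were examined in LNCaP cells, a prostate cancer line that depends on androgens for growth. The members were selected on their level, as the symbols with a mean of at least 1 TPM (transcripts scaled to a fixed total per library, corrected for length) over the 16 libraries. This gave 178 of 2104 such symbols in the table, of which 1068 were above 0 in any library, and of 60642 gene symbols in all. Because the level chose the members, their levels are given as a description. The selection mean included every condition, but 176 of the 178 also reached a mean of 1 over the 12 libraries other than the DHT and VEH groups. Just below the minimum stood LINC02019 (0.961 TPM), LINC01134 (0.986) and LINC01869 (0.998), and just above it LINC02012 (1.02), LINC01167 (1.03) and LINC02666 (1.04).

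Cells were grown for 72 h in medium with serum and then for 48 h in androgen-depleted medium, and all 8 groups share this history. Treatment lasted 48 h, with 2 biological replicates per group. VEH received only the solvents, and DHT received 10 nM of the androgen dihydrotestosterone. BIC.VEH, ENZ.VEH and APA.VEH received 10 µM of the antiandrogens (antagonists) bicalutamide, enzalutamide or apalutamide, and BIC.DHT, ENZ.DHT and APA.DHT received the antagonist together with 10 nM DHT (the labels abbreviate apalutamide as ARN). LNCaP is a single established line, so the replicates do not sample donors, and the p-values measure the spread between these cultures.

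Long noncoding RNAs are transcripts made and processed much like messenger RNAs, usually spliced and often polyadenylated, that are not known to be translated into a protein. Intergenic ones lie between protein-coding genes. Most are present at low levels and vary strongly between cell types, and a few act on the chromatin or transcription of nearby genes, whereas most have no established function. In prostate cells, androgens act on transcription through DNA sequences called androgen response elements, and raise some genes while lowering others. Antiandrogens are drugs that oppose this action.

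The libraries held between 14652 and 15360 genes at a TPM of at least 1. Depth cannot be recovered from TPM, so precision was judged from the spread between replicates. Replicates of a group correlated with r of 0.964 to 0.982 across genes. The luminal markers KRT8 (545.54 to 976.05 TPM) and HOXB13 (149.03 to 257.55 TPM) were present in every library. Of the markers of other cell types, KRT5, TP63, CD3E, PTPRC, COL1A2, DCN, PECAM1, CHGA and CHGB stayed at or below 0.17 TPM. KRT14 (0 to 1.68 TPM), COL1A1 (11.44 to 32.55), CD68 (0.92 to 12.11), VWF (0.61 to 1.9) and SYP (0.79 to 2.3) did not. KLK3, which encodes prostate-specific antigen and served as the check of the treatment, was higher by 6.42 on the log2 scale in DHT than in VEH (SE 0.64, limma adjusted p 0.00016).

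The members were low relative to other genes. Their mean TPM had a median of 3.66, against 14.2 for all 15207 symbols that met the same minimum, with 44 members at 10 TPM or more and 51 at 2 TPM or less. Together they held between 0.142% and 0.192% of the TPM of a library. The highest was LINC00665, at a mean of 83.9 TPM, followed by LINC01578 (82.3), LINC01667 (67.5), LINC02197 (65.5), LINC01278 (61.7), LINC02802 (58.3), LINC00161 (47.6), LINC00963 (39.5), LINC02210 (36.4) and LINC01002 (34.4). LINC01578 is CHASERR, a transcript known to restrain its neighbour CHD2, which encodes a chromatin remodeller. LINC00665 ran from 68.65 to 98.75 TPM over the libraries, with overlapping values in DHT (84.08 and 98.75) and VEH (74.71 and 90.81) and replicate 2 the higher in every group. Part of the LINC00665 transcript (up to 2999 bases) is nearly identical to other annotated genes, and 29 other genes share such a stretch with LINC01002, so their levels are uncertain.

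In the RefSeq annotation of GRCh38.p14, 151 members matched by symbol and 20 by an older name, and all 171 are annotated as long noncoding RNAs. Another 3 symbols (LINC00514, LINC00634 and LINC02804) are older names of protein-coding genes, and 4 had no match. Chromosome 1 holds 29 members, and chromosomes 2 and 3 hold 11 each. By position, 27 members overlap a protein-coding gene although their name calls them intergenic, 51 more lie within 10 kb of one, and 31 lie over 100 kb away. The median gap to the closest protein-coding gene was 13912 bp.

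To follow the androgen response, the DHT libraries were set against VEH on log2(TPM + 1) values, a scale that understates the change of low genes. DHT lowered many more LINC genes than it raised. Of the 178 members, 34 were called by limma at a Benjamini-Hochberg adjusted p below 0.05 over all genes, 6 higher (LINC00844, LINC02326, LINC02693, LINC01128, LINC00161 and LINC01123) and 28 lower. These are 19.1% of the members, against 10.3% of all 16636 genes tested. By direction, 3.37% of members were higher against 3.63% of all genes, and 15.7% were lower against 6.64%. All genes at the same minimum mean had 3.56% higher and 7.11% lower. That minimum favours genes low only in DHT over genes high only in DHT, and its part in this balance was not tested. The median log2 fold change of the members was -0.31, against -0.10 over all genes, and 42 of 178 lay above 0. In bulk RNA, less of a transcript per cell and fewer cells that make it cannot be told apart.

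With replicate number as a block, 65 members were called (8 higher, 57 lower), which is 36.5% of them against 27.4% of all genes. They included the 34, none of which changed sign. Scaling each library by the median ratio to the mean profile moved the median of all genes from -0.10 to -0.0048. The members then had a median of -0.24 and 6 higher and 21 lower calls, beside 949 higher and 899 lower calls among all genes (11.1% called), which had been 604 and 1105. The number of calls depended on the libraries fitted. How many of all genes were called in the fits below is not given here, so the fall is not a result about the members alone. The members called numbered 3 when the other 12 libraries were left out of the fit. They were also fewer than the 34 without VEH replicate 1, VEH replicate 2, DHT replicate 1 or DHT replicate 2. Of 25 of these calls followed one by one (the 24 named for this comparison and LINC00893), LINC00648, LINC00844, LINC00893, LINC01003, LINC01322, LINC02614 and LINC02672 remained without any of these libraries, and each of the others was lost without at least 1 of them.

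The lower level also showed in the sum of each library. The members summed to 1410 and 1393 TPM in the DHT libraries, below every other library (1555 to 1888 TPM). With DHT, 156 and 153 of them reached 1 TPM, against 164 to 173 elsewhere. Among all genes, 14652 and 14847 did so with DHT, against 14830 to 15360 elsewhere. The mean of a member was below 1 TPM in DHT for 25 members and in VEH for 4. The minimum mean, set mostly by libraries other than DHT alone, favours the lower sum and both differences around 1 TPM among the members. A list of 20 genes of dividing cells was higher in DHT than in VEH within each replicate number. It summed to 716.2 and 1381 TPM with DHT and to 260.6 and 624 TPM in VEH. In every group it was higher in replicate 2 than in replicate 1. It did not set both DHT libraries apart, as replicate 2 of BIC.VEH (727.6 TPM) and of BIC.DHT (903.5 TPM) lay above DHT replicate 1. All 20 of its genes were higher with DHT (median log2 fold change 1.28), with 0 called and 19 called with the block. Mitochondrial genes held 22.3% and 14.7% of the TPM in the DHT libraries, the highest and the lowest of all 16. The part of either in the change of the LINC genes was not tested.

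**Figure D1:**
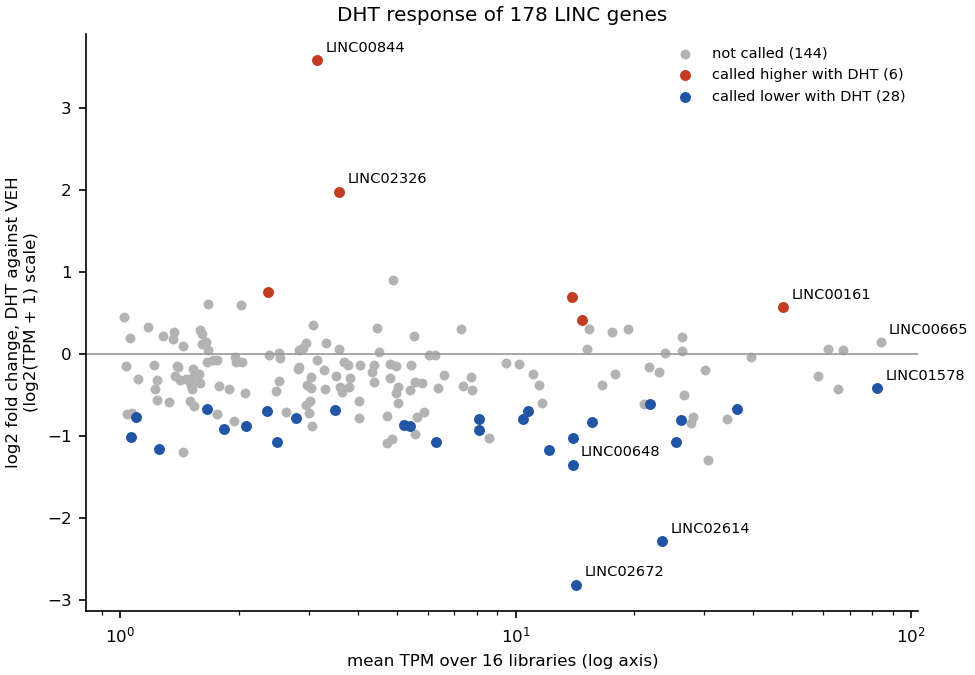
Each point is 1 of the 178 LINC genes, with its mean TPM over 16 libraries on a log horizontal axis and its log2 fold change in DHT against VEH on the vertical axis. Red marks the 6 called higher, blue the 28 called lower and grey the 144 not called. The called genes spread over the whole range of levels, and LINC00844 (3.59) and LINC02672 (-2.81) stand farthest from 0.

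LINC00844 showed the highest rise. It is a transcript of chr10:58999518-59001617 on the + strand, known as an androgen-regulated RNA of prostate cells, with no other annotated gene overlapping it and BICC1 168083 bp away. It stood at 0.32 and 0.37 TPM in VEH and at 15.71 and 14.65 TPM in DHT. The groups were far apart and the replicates of each close together, and the rise was 3.59 on the log2 scale (SE 0.52, limma adjusted p 0.0015). The call held with only these 4 libraries in the fit (limma adjusted p 0.029).

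LINC02326 (chr14:28975649-29065055, - strand) came next. It rose from 2.12 and 1.17 TPM in VEH to 11.52 and 7.41 TPM in DHT, up by 1.98 on the log2 scale (SE 0.38, limma adjusted p 0.008). Both DHT libraries lay above both VEH libraries, but replicate 1 was the higher of each pair. The call was lost without VEH replicate 2 (1.72, limma adjusted p 0.067) or DHT replicate 1 (1.69, limma adjusted p 0.071), and its adjusted p was 6.3e-06 with the block.

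The other 4 rose by less than 1 on the log2 scale. LINC00161 (chr21:28539318-28540355, + strand) went from 39.22 and 46.09 TPM to 69.05 and 58.61 TPM (0.57, SE 0.15, limma adjusted p 0.03). LINC01128 (chr1:827591-859446) went from 12.67 and 13.33 TPM to 19.63 and 24 TPM (0.70, SE 0.18, limma adjusted p 0.032). In both, every DHT library was above every VEH library. LINC02693 and LINC01123 rose by 0.75 and 0.42, each with a limma adjusted p of 0.047. LINC01123 shares up to 2256 nearly identical bases with LINC01106 and a pair of pseudogenes. LINC01128 shares up to 415 with 3 other genes, LINC00115 among them. Reads of LINC01123 and LINC01128 could therefore have been divided among the genes that share these stretches.

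LINC02672, LINC02614 and LINC00648 fell most. LINC02672 (chr10:52972264-53030110) dropped from 19.69 and 14.06 TPM in VEH to 1.52 and 1.5 TPM in DHT, which is -2.81 on the log2 scale (SE 0.39, limma adjusted p 0.0012). In the other 12 libraries it stood between 10.42 and 22.92 TPM, so the DHT pair was apart from all others. LINC02614 (chr3:125827237-125886077) dropped from 32.76 and 26.04 TPM to 6 and 4.54 TPM (-2.28, SE 0.24, limma adjusted p 0.0002). LINC00648 (chr14:47764953-47795014) dropped from 15.56 and 16.54 TPM to 4.96 and 6.51 TPM (-1.35, SE 0.18, limma adjusted p 0.00094). None of the 3 shares a stretch of 200 or more nearly identical bases with another annotated gene. LINC02614 overlaps LOC112267908, a protein-coding gene in RefSeq, so reads over that overlap may not all be its own. The calls of LINC02672 and LINC02614 also held without the other 12 libraries (limma adjusted p 0.04 and 0.047).

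The remaining calls lay between -0.41 and -1.17. LINC01503, a transcript studied in squamous cancers, fell from 16.21 and 11.74 TPM to 5.84 and 5.33 TPM, and LINC02718 from 31.59 and 24.89 TPM to 14.74 and 11.10 TPM. LINC01003 fell from 18.44 and 15.31 TPM to 8.06 and 7.50 TPM. The replicates of these 3 genes did not overlap between groups. LINC01322 went from 1.49 and 1.06 TPM to 0.08 and 0.16 TPM, near the lower end of what these libraries show, and its log2 fold change of -1.02 understates that ratio. LINC01090 (-1.16), LINC01778 (-1.08), LINC01695 (-1.07), LINC01786 (-0.93) and LINC02298 (-0.91) completed the 12 lowest.

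The high-level LINC01578 fell by the smallest amount of any call, from 91.36 and 90.30 TPM to 66.47 and 69.45 TPM (-0.41, SE 0.10, limma adjusted p 0.019). LINC02210 fell from 36.60 and 45.17 TPM to 27.52 and 23.04 TPM (-0.67, limma adjusted p 0.027), but it overlaps its own readthrough gene LINC02210-CRHR1, so the reads of the pair are hard to separate. LINC02482, LINC01876, LINC01193 and LINC01001 had log2 fold changes between -0.61 and -0.69. LINC01001 and LINC01193 share nearly identical stretches with 15 and 3 other genes, respectively, and their levels are uncertain.

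The 144 members that were not called ran from -1.29 to 0.90, with 36 of them above 0. Of the 10 members with the highest levels, 7 were not called. LINC01667, LINC01278 and LINC00963 had log2 fold changes of 0.05, 0.06 and -0.04, and LINC00665 of 0.14 (SE 0.20, limma adjusted p 0.71). LINC02197 (-0.42) and LINC01002 (-0.80) passed with the block (adjusted p 0.026 and 0.0012) and not without it (limma adjusted p 0.19 and 0.078), and LINC02802 (-0.27) passed with neither.

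**Figure D2:**
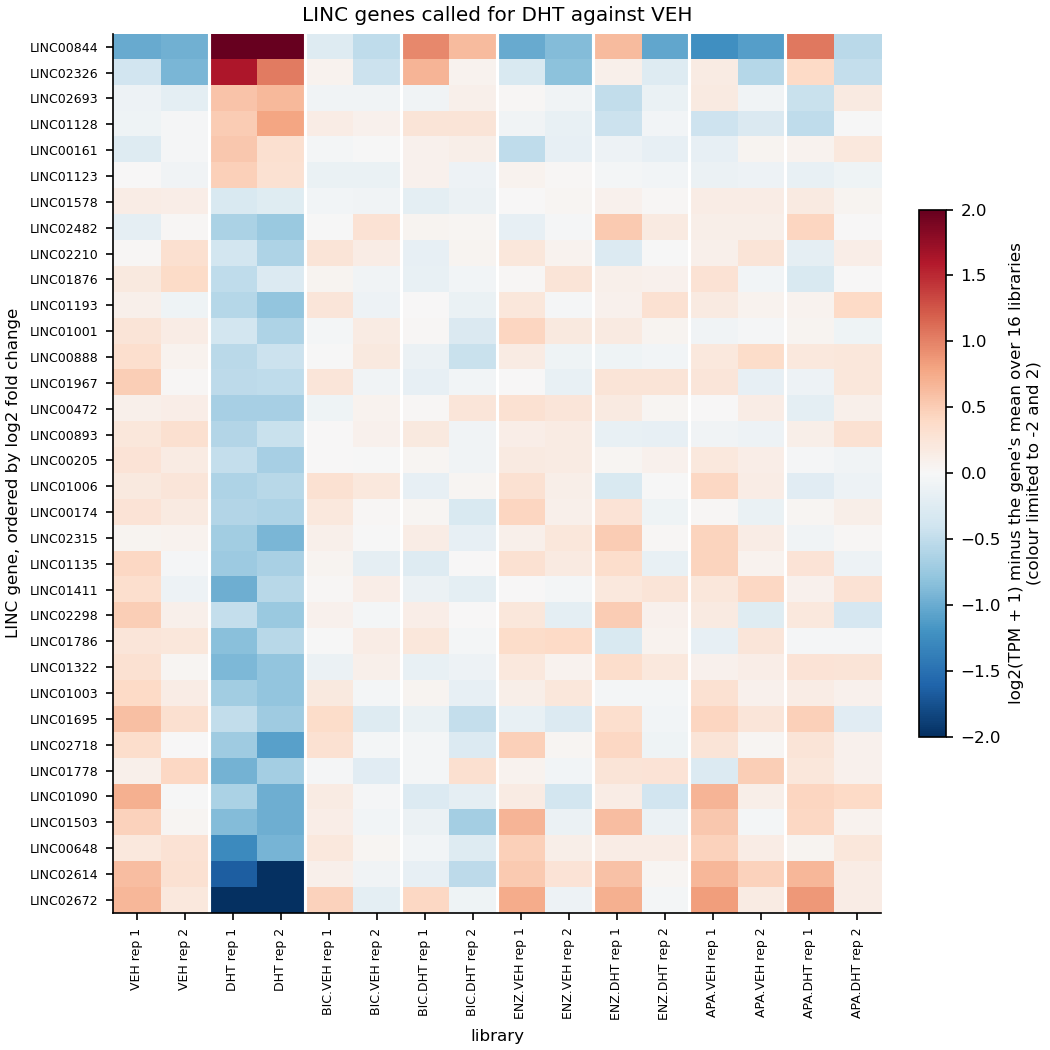
Rows are the 34 called LINC genes, ordered by log2 fold change in DHT against VEH, and columns are the 16 libraries. Colour gives log2(TPM + 1) minus the gene's mean over all libraries, limited to between -2 and 2. The 2 DHT columns differ in colour from the other 14, and the columns of DHT with an antagonist look more like the columns without DHT. The rows were selected because DHT differed from VEH in these same libraries, which favours both appearances by construction.

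The promoters of 6 called genes are shown because they place the start of a transcript that rose or fell beside the letters of the androgen response element and of the forkhead motif. They are the 3 that rose most and the 3 that fell most among called genes with an entry in the RefSeq promoter set of GRCh38.p14 (250 bases before the start to 50 after it, 5′ to 3′ on the strand of the gene). Capitals mark the core of the androgen response element (TGTTCT or its reverse complement AGAACA) and the forkhead motif (TGTTTAC or GTAAACA). Rose with DHT, chr10:58999268-58999567, + strand:
LINC00844: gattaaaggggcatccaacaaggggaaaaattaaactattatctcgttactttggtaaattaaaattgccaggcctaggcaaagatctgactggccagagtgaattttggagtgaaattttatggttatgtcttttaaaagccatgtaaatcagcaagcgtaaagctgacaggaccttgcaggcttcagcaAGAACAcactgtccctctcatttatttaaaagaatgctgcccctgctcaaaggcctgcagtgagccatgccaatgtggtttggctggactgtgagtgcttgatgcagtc
Rose with DHT, chr14:29065006-29065305, - strand:
LINC02326: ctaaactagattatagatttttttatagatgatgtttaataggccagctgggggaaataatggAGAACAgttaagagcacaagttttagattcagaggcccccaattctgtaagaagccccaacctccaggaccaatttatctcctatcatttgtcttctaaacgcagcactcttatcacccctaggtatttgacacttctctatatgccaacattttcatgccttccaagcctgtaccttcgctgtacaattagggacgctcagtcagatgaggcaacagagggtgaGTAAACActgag
Rose with DHT, chr21:28539068-28539367, + strand:
LINC00161: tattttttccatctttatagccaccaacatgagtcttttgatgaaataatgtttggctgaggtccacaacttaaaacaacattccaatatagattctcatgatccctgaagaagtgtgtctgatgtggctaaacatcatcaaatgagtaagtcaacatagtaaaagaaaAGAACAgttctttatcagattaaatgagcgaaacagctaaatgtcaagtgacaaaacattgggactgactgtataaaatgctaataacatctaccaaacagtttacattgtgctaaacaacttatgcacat
Fell with DHT, chr1:30824402-30824701, + strand:
LINC01778: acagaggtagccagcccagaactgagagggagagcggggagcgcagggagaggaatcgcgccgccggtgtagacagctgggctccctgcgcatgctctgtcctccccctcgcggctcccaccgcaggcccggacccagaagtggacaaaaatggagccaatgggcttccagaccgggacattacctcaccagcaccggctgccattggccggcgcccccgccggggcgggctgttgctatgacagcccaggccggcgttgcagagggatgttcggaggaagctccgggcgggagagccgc
Fell with DHT, chr11:22829164-22829463, + strand:
LINC02718: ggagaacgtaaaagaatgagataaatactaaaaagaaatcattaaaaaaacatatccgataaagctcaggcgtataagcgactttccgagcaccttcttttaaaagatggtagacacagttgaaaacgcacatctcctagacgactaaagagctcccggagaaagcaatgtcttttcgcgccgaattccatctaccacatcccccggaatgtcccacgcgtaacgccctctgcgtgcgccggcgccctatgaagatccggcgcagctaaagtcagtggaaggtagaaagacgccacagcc
Fell with DHT, chr21:28228618-28228917, - strand:
LINC01695: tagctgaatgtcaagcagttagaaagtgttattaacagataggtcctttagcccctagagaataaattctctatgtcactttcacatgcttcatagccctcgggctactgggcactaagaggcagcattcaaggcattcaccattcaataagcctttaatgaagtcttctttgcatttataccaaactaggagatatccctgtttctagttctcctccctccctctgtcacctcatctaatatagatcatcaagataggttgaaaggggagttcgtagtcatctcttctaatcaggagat

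The first base of the androgen response core lies at -59 in LINC00844, -187 in LINC02326 and -81 in LINC00161, counted from the annotated start, and the forkhead motif of LINC02326 lies at 39. The 3 promoters of the genes that fell hold none of these letters. Base composition differed among the 6, from 33.3% G and C in LINC00161 to 68.3% in LINC01778. Searched on both strands, the androgen response core was in 14.9% of all 27305 promoters and in 25 of the 129 members with an entry (19.4%). Among called genes it was in 3 of the 4 that rose and 1 of the 20 that fell. The complete element with inverted cores, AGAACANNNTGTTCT, was in 1 promoter of all (0.00366%) and in 0 members. The forkhead motif, which can share at most 1 base with the core, was in 3.41% of all promoters, 6 members (4.65%), 1 of the 4 that rose and 0 of the 20 that fell. A match describes letters and is no evidence of binding. LINC02672, LINC02614 and LINC00648 had no entry.

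The levels of single genes over all 8 groups show how they differed from the DHT level when an antagonist was added. Each antagonist was compared with the same 2 DHT libraries, so the comparisons below share them with each other and with DHT against VEH, and that sharing favours a sign opposite to the DHT response.

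**Figure D3:**
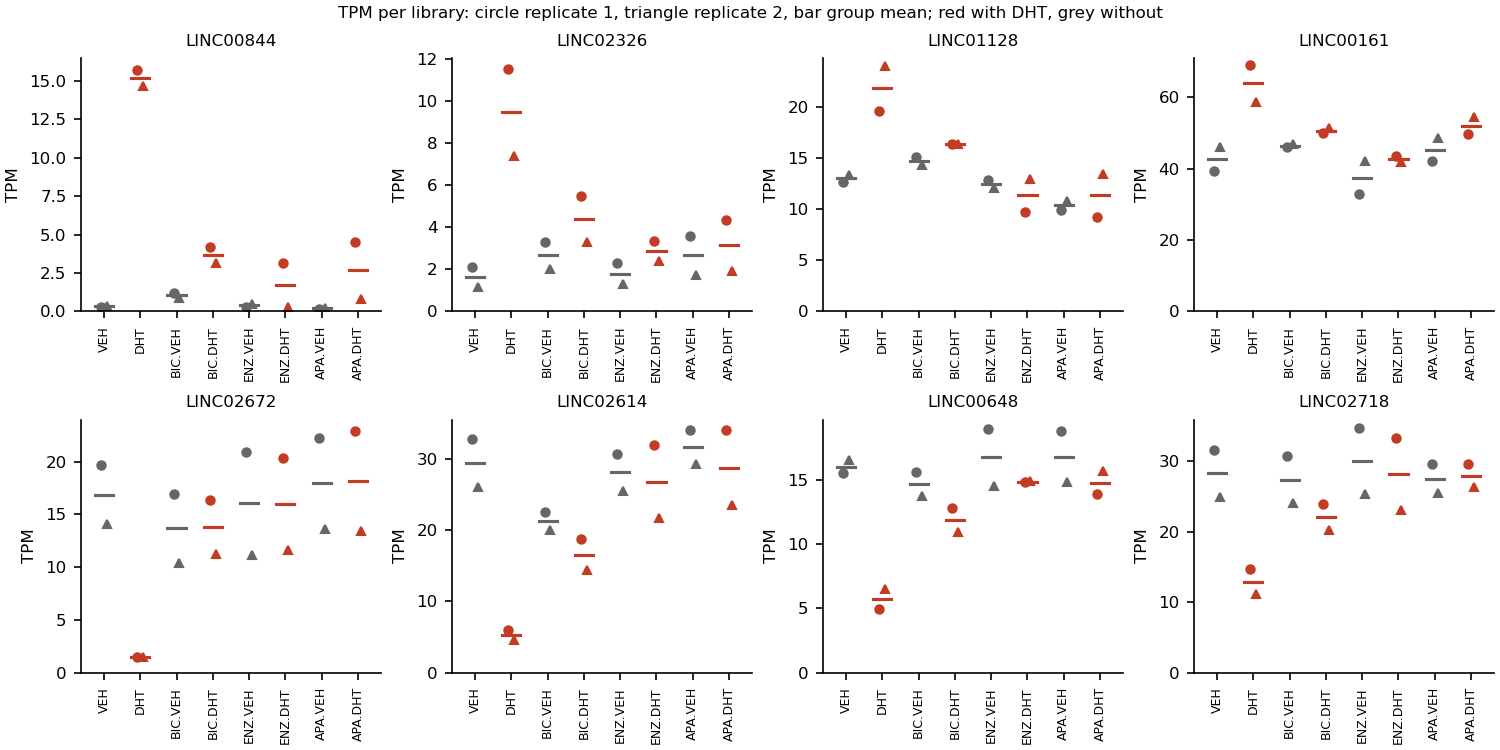
TPM of 8 LINC genes in each library, by group, from 0 upward. Circles are replicate 1, triangles replicate 2, bars the group mean, and red marks the groups that received DHT. LINC02672 stood at 1.52 and 1.5 TPM in DHT and at 10.42 TPM or more in every other library, while LINC00844 was at 14.65 TPM or more in DHT and at 4.55 or less elsewhere.

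With BIC, 10 members were called against DHT, all higher, which is 5.62% of the members against 3.13% of all genes (1.45% higher and 1.68% lower). With ENZ, 25 were called (19 higher, 6 lower), or 14% against 9.65% of all genes (4.74% higher and 4.91% lower). With APA, 23 were called (20 higher, 3 lower), or 12.9% against 8.36% of all genes (4.25% higher and 4.11% lower). The members had medians of 0.19, 0.32 and 0.30 on the log2 scale in BIC.DHT, ENZ.DHT and APA.DHT, and all genes lay within 0.02 of 0. Under median-ratio scaling the higher and lower calls were 10 and 0 (BIC), 21 and 3 (ENZ), and 19 and 4 (APA). Among all genes they were 295 and 355, 892 and 965, and 803 and 883. The share of higher calls among the members went from 76% to 87.5% with ENZ and from 87% to 82.6% with APA.

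With the block, 32 members were called with BIC (28 higher), 66 with ENZ (58 higher) and 61 with APA (53 higher). These are 18%, 37.1% and 34.3% of the members, against 13.3%, 29.2% and 27.3% of all genes. They included every call made without the block. When the fit held only the groups compared, 0 members were called with each antagonist, beside 0, 7 and 0 of all genes. In these fits 41, 43 and 36 members had an unadjusted p below 0.05 (23%, 24.2% and 20.2%, against 16.5%, 16.5% and 15% of all genes). Without either DHT replicate, fewer members were called with each antagonist. Leaving out a replicate of the antagonist group also gave fewer, except ENZ.DHT replicate 2, without which the number hardly changed. How many of all genes were called with a library left out is not given here. The dividing-cell list was lower than in DHT with each antagonist, with medians of -0.60, -1.48 and -1.31 on the log2 scale and 0 of its 20 genes called. With the block, 8, 20 and 20 were called, and its part in these results was not tested.

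Of the called members, LINC02672 rose most with every antagonist, to 16.32 and 11.25 TPM in BIC.DHT, 20.33 and 11.67 TPM in ENZ.DHT and 22.92 and 13.47 TPM in APA.DHT. Against DHT it rose by 2.54, 2.71 and 2.89 on the log2 scale (SE 0.39 for each, limma adjusted p 0.0056, 0.0017, 0.0013). Replicate 1 was the higher in each group, as it was in VEH. LINC02614 stood at 18.70 and 14.33 TPM in BIC.DHT, 31.85 and 21.62 TPM in ENZ.DHT and 33.98 and 23.48 TPM in APA.DHT, for log2 fold changes of 1.48, 2.13 and 2.23 (SE 0.24 for each, limma adjusted p 0.0074, 0.00038 and 0.00029). The ENZ.DHT and APA.DHT values of LINC02614 overlapped those of VEH, whereas both BIC.DHT values lay below both VEH values. With BIC, the call of LINC02672 was lost without DHT replicate 2 (limma adjusted p 0.055) or BIC.DHT replicate 1 (0.075), and that of LINC02614 without the same libraries (0.082 and 0.09).

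LINC00648 reached 12.82 and 10.98 TPM in BIC.DHT, 14.83 and 14.93 TPM in ENZ.DHT and 13.89 and 15.72 TPM in APA.DHT (0.94, 1.25 and 1.24 on the log2 scale, limma adjusted p 0.017, 0.0017 and 0.0019). All 6 values lay above both DHT values and under the higher VEH value. LINC01322, LINC01003 and LINC02482 were also called higher with all 3 antagonists, as were LINC00472 and LINC00205, which were named after their values were seen. LINC01322, for example, returned from 0.08 and 0.16 TPM in DHT to 0.82 and 0.87 TPM with BIC, 1.57 and 1.32 TPM with ENZ and 1.44 and 1.41 TPM with APA.

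Of the genes that DHT raised, LINC00844 fell to 4.19 and 3.13 TPM in BIC.DHT, 3.14 and 0.29 TPM in ENZ.DHT and 4.55 and 0.83 TPM in APA.DHT. All 6 values lay below both DHT values, but the replicates of ENZ.DHT and APA.DHT were far apart. The log2 fold changes were -1.80, -2.81 and -2.34 (SE 0.52 for each, limma adjusted p 0.098, 0.0075 and 0.019), and that with BIC passed with the block (adjusted p 0.024). With ENZ the value became -3.65 when ENZ.DHT replicate 1 was left out and -1.97 when replicate 2 was, and without either DHT library the call was lost (limma adjusted p 0.051 and 0.053). With APA it was -3.14 without APA.DHT replicate 1, and the call was lost without replicate 2 (-1.54, limma adjusted p 0.08) and without either DHT library (0.095 and 0.097).

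LINC02326 stood at 5.51 and 3.29 TPM in BIC.DHT, 3.36 and 2.39 TPM in ENZ.DHT and 4.37 and 1.93 TPM in APA.DHT, below both DHT libraries. Its change of -1.42 with ENZ was called (limma adjusted p 0.041, and 0.087 to 0.2 with each of the 4 libraries compared left out) and that of -0.96 with BIC was not (0.26, and 0.0017 with the block). With APA the change of -1.37 had a limma adjusted p of 0.05 that missed the threshold, and one of 8.4e-05 with the block. LINC01128 fell to 9.76 and 12.98 TPM with ENZ and 9.26 and 13.41 TPM with APA (-0.89 and -0.90, limma adjusted p 0.012 each), and stood at 16.35 and 16.40 TPM with BIC (-0.39, limma adjusted p 0.35). The calls of LINC01128 were lost without DHT replicate 2 or replicate 1 of the antagonist group (limma adjusted p from 0.08 to 0.11). LINC02693 and LINC00161 fell with ENZ (-0.93 and -0.57), and LINC01123 fell with ENZ (-0.44) and APA (-0.51).

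Outside the 34 genes called for DHT, 1 member was called with ENZ and 1 with APA, and 0 with BIC. LINC00653, named after its values were seen, went from 0.84 and 0.92 TPM in DHT to 2.20 and 1.67 TPM in ENZ.DHT (0.64, limma adjusted p 0.041). LINC02804 went from 0.89 and 1.03 TPM to 5.54 and 3.46 TPM in APA.DHT (1.46, SE 0.41, limma adjusted p 0.049), and that call was lost when any 1 of the 4 libraries compared was left out (limma adjusted p 0.055 to 0.23). The symbol LINC02804 is an older name of a protein-coding gene in RefSeq.

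**Figure D4:**
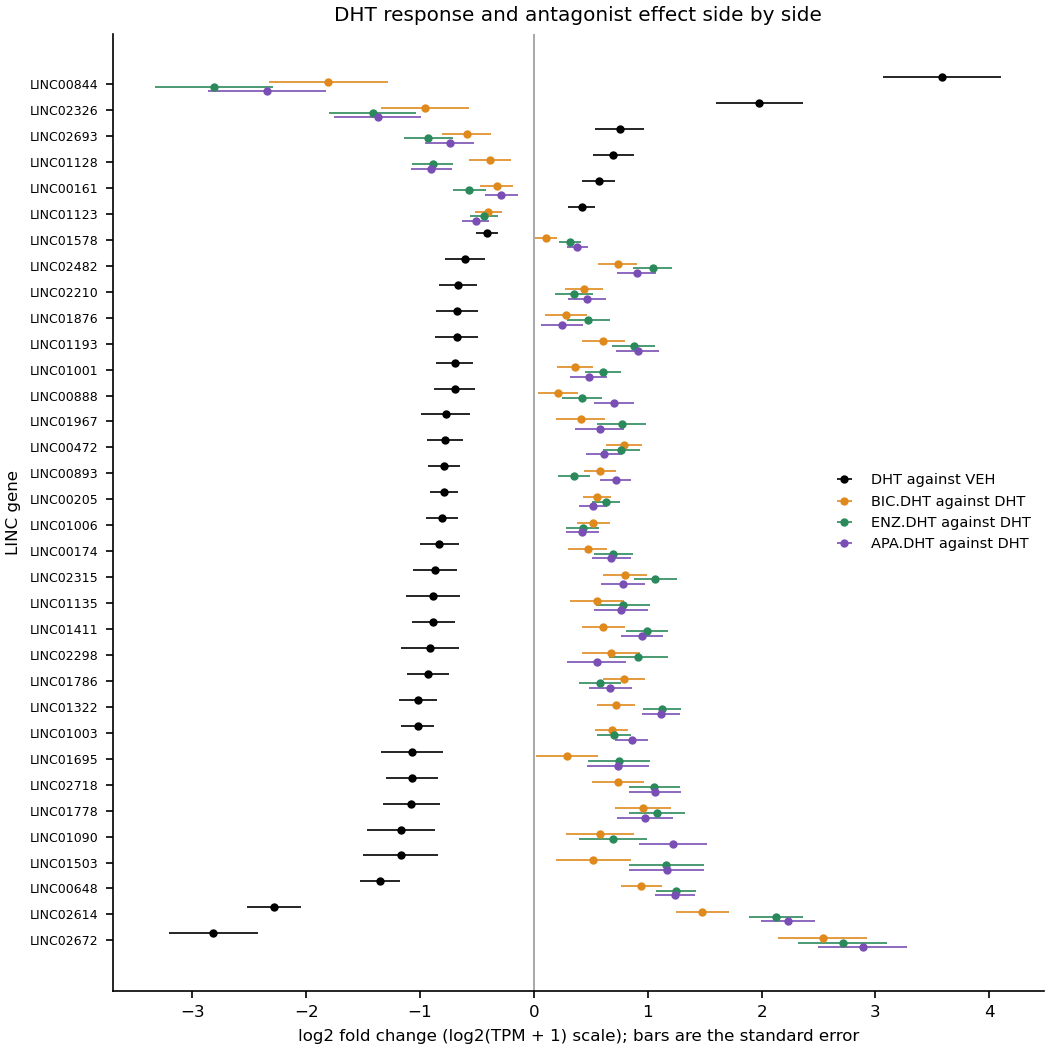
Log2 fold change of the 34 called LINC genes in DHT against VEH (black) and in each antagonist with DHT against DHT (orange BIC, green ENZ, purple APA), with bars for the standard error. The antagonist values lie on the opposite side of 0 from the DHT value, which the shared DHT libraries favour by construction, and for LINC02614 BIC (1.48) lies nearer to 0 than ENZ (2.13) and APA (2.23).

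Without DHT, no member was called with any antagonist against VEH, by limma with or without the block. The counts were 0 of 178 in BIC.VEH, ENZ.VEH and APA.VEH, with 1, 1 and 2 members at an unadjusted p below 0.05 (0.562%, 0.562% and 1.12%, against 1.17%, 0.836% and 0.908% of all genes). Of all genes, 0%, 0% and 0.00601% were called, and 0.0180%, 0% and 0.0120% with the block. In BIC.VEH, LINC00844 stood at 1.22 and 0.87 TPM, above both VEH values (0.32 and 0.37), and LINC02614 at 22.56 and 20.01 TPM, below both (32.76 and 26.04). The differences of 0.60 and -0.44 on the log2 scale (SE 0.52 and 0.24) were not called (limma adjusted p 1 for both). In ENZ.VEH and APA.VEH, LINC00844 stood between 0.14 and 0.46 TPM.

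DHT was also compared with its solvent within each antagonist. No member was called with BIC, ENZ or APA (0 each by limma with or without the block, with 4, 4 and 6 members at an unadjusted p below 0.05). These are 2.25%, 2.25% and 3.37% of the members, against 1.41%, 3.25% and 2.45% of all genes. Of all genes, 0%, 0.00601% and 0.00601% were called, and 0%, 0.00601% and 0.0240% with the block. LINC00844 was still higher with DHT in each library pair of BIC (1.22 and 0.87 against 4.19 and 3.13 TPM) and APA (0.14 and 0.24 against 4.55 and 0.83 TPM), with log2 differences of 1.18 and 1.42 (SE 0.52) that were not called. With ENZ it went from 0.32 and 0.46 TPM to 3.14 and 0.29 TPM, up in replicate 1 and down in replicate 2. LINC02672 differed by 0.03 under BIC and by 0.01 under both ENZ and APA, and LINC02614 by -0.36, -0.09 and -0.15.

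The interaction asks whether the DHT response itself differed with the antagonist. It was called for 2 members with BIC, 4 with ENZ and 5 with APA, all with a positive sign. These are 1.12%, 2.25% and 2.81% of the members, against 0.986%, 1.63% and 1.42% of all genes. LINC02672 and LINC02614 were among the called members for every antagonist. LINC00648 and LINC01322 were called with ENZ and APA, and LINC00893 with APA. With the block, 18, 30 and 32 members were called (10.1%, 16.9% and 18%), against 6.39%, 9.91% and 10.1% of all genes. Of these members, 16, 25 and 31 had a positive sign. With only the 4 groups involved in the fit, 3 members were called with BIC and 0 with ENZ and APA, beside 154, 43 and 36 of all genes. With ENZ and APA, 29 and 33 members had an unadjusted p below 0.05 (16.3% and 18.5%, against 9.91% and 11.2% of all genes). Each of the 8 libraries involved was also left out in turn. Every such fit called fewer members than the fit of all libraries, with each antagonist. How many of all genes were called in those fits is not given here. The call of LINC02614 with ENZ remained without any single library (limma adjusted p up to 0.045).

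The antagonists were compared with each other at the same dose and time. Enzalutamide and apalutamide share a thiohydantoin ring that bicalutamide lacks. Over 6 pairs, no member was called (0 of 178 in each, by limma with or without the block), and 0.00601% of all genes were for ENZ against BIC with DHT, 0% for APA against BIC and 0.00601% for APA against ENZ. Without DHT these were 0%, 0.0120% and 0.00601%. With the block they were 0.0120%, 0.0541% and 0.00601% with DHT, and 0.00601%, 0.0842% and 0.00601% without. The members at an unadjusted p below 0.05 numbered 13, 12 and 1 with DHT (7.3%, 6.74% and 0.562%, against 3.4%, 2.9% and 0.613% of all genes) and 7, 4 and 2 without (3.93%, 2.25% and 1.12%, against 1.79%, 1.57% and 1.64%).

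Among the 34 genes called for DHT, the unadjusted 95% intervals left out 0 in both comparisons with BIC for LINC02614, LINC01128, LINC01322 and LINC01578. This is with DHT, where both comparisons share the same 2 BIC.DHT libraries. With DHT, LINC02614 differed by 0.65 between ENZ and BIC (95% interval 0.129 to 1.17) and by 0.75 between APA and BIC (0.231 to 1.27), and neither passed over all genes (limma adjusted p 0.93 and 1, and 0.082 and 0.05 with the block, the latter not below the threshold). Between APA and ENZ it differed by 0.10 (-0.418 to 0.623). LINC01128 had lower values in ENZ and APA than in BIC, with differences of -0.50 (-0.901 to -0.104) and -0.52 (-0.913 to -0.117), with limma adjusted p of 0.93 and 1. Without DHT, the intervals between APA and BIC included 0 for LINC01322 (-0.247 to 0.476) and LINC01578 (-0.00537 to 0.412). LINC02614 and LINC01128 differed there in the same direction as with DHT. LINC02614 differed by 0.55 (0.0284 to 1.07) and LINC01128 by -0.47 (-0.867 to -0.0708). Between ENZ and BIC without DHT they differed by 0.38 (-0.139 to 0.903) and -0.22 (-0.621 to 0.175). For LINC02672 with DHT the intervals were -0.682 to 1.03, -0.504 to 1.21 and -0.678 to 1.04, and for LINC00844 -2.14 to 0.137, -1.68 to 0.601 and -0.676 to 1.6. The half-widths of these intervals had a median of 0.523 over the 178 members (0.209 to 1.9), so smaller differences were often not detectable at this spread.

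Because long noncoding genes can share a promoter or a domain with a neighbour, the nearest protein-coding gene of each member was followed in DHT against VEH. It was tested for 109 members. Of the 19 called members among them, 6 had a neighbour called in the same direction, 1 in the opposite direction and 12 a neighbour that was not called, and of the 90 uncalled members 11 (12.2%) had a called neighbour. Across the 109 pairs, which share 105 neighbours and the same libraries, r was 0.254 and rho 0.226 between the log2 fold changes. With the neighbour set by the smallest distance between starts, 5 of 16 called members had one called in the same direction and 1 in the opposite direction, beside 4 of 78 uncalled members with a called one (5.13%). With the nearest tested gene, a definition added after seeing the data, these were 7 and 2 of 34, and 15 of 137 (10.9%). With the replicate block, 35 of the 109 members were called. Of these, 12 had their nearest gene called in the same direction, 2 in the opposite direction and 21 not called, and 21 of the 74 uncalled members (28.4%) had a called neighbour. With the nearest tested gene, the block gave 16 and 4 of 62, and 29 of 109 (26.6%).

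The 6 pairs in the same direction all fell with DHT. LINC01322 (chr3:165206948-165539437, + strand) begins 9839 bp from SLITRK3, a membrane protein of synapses on the - strand, which went from 26.77 and 18.88 TPM in VEH to 4.36 and 3.73 TPM in DHT (-2.22, SE 0.29, limma adjusted p 0.00091). LINC02718 (chr11:22829414-23205797, + strand) overlaps the start of SVIP, an inhibitor of protein degradation at the endoplasmic reticulum on the - strand, and SVIP went from 296.82 and 268.68 TPM to 108.41 and 102.17 TPM (-1.42, SE 0.19, limma adjusted p 0.00094). LINC01135, JUN-DT in RefSeq, lies 1104 bp from JUN, which encodes a subunit of the AP-1 transcription factor, on the opposite strand. JUN went from 41.16 and 35.59 TPM to 21.53 and 20.12 TPM (-0.85, SE 0.12, limma adjusted p 0.0014), and LINC01135 from 3.01 and 1.96 TPM to 0.82 and 0.92 TPM. The other pairs were LINC01003 and KMT2C, a histone methyltransferase (-1.03, limma adjusted p 0.027), LINC00174 and TPST1, a tyrosine sulphotransferase (-0.61, limma adjusted p 0.036), and LINC01411 and MSX2, a homeobox factor (-0.74, limma adjusted p 0.021). In each of the 6, both neighbour values in DHT lay below both in VEH.

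In the pairs below, the LINC gene and its neighbour were not both called in the same direction. SAMD11 fell from 89.25 and 55.12 TPM to 26.73 and 22.15 TPM (-1.49, limma adjusted p 0.029) while LINC01128, 64477 bp away, rose. LINC00161 rose and LINC01695 fell although both lie on chromosome 21 nearest to N6AMT1 (HEMK2 in RefSeq), which differed by -0.09 on the log2 scale (SE 0.14, limma adjusted p 0.75). CHD2, 1577 bp from LINC01578, went from 48.72 and 48.93 TPM to 37.99 and 38.03 TPM, in the same direction as LINC01578, and was not called (-0.35, SE 0.15, limma adjusted p 0.17, and 0.077 with the block). Whether the authors' counting used the strand is not given in the sources used here, so reads over the LINC02718 and SVIP overlap may be shared.

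**Figure D5:**
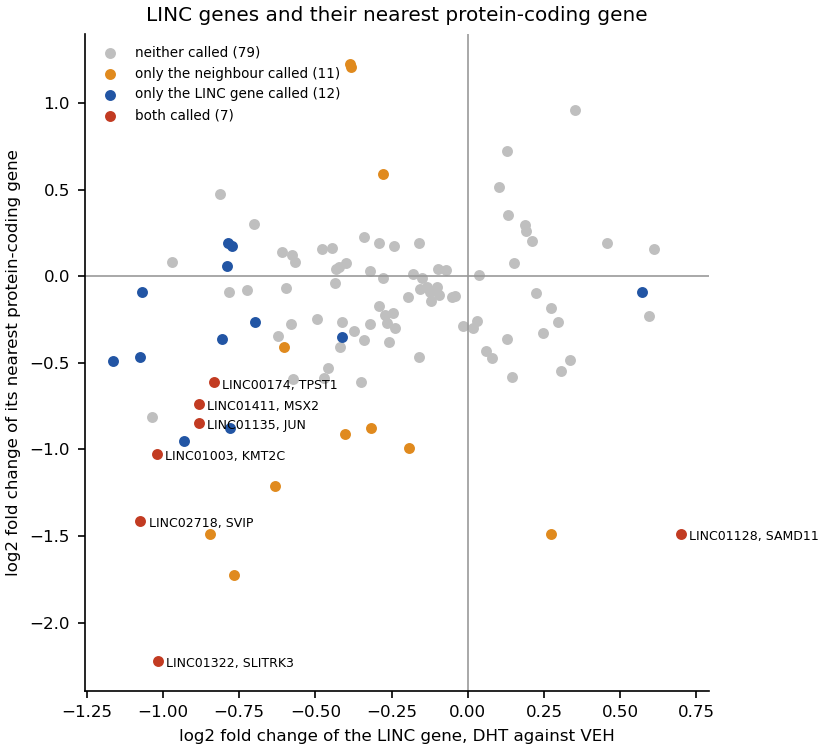
Each point is 1 of 109 LINC genes, with its log2 fold change in DHT against VEH on the horizontal axis and that of its nearest protein-coding gene on the vertical axis. Red marks the 7 pairs with both called, blue the 12 with only the LINC gene, orange the 11 with only the neighbour and grey the 79 with neither. Of the red pairs, 6 lie at the lower left and LINC01128 with SAMD11 at the lower right.

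Other classes of noncoding genes at the same minimum level were compared by their counts. In DHT against VEH, antisense genes (symbols ending in AS and digits) had 6 higher and 21 lower calls of 325 (6.46% lower, median log2 fold change -0.18). Divergent transcripts had 0 and 3 of 52 (median -0.07), and hosts of small RNAs 1 and 4 of 44 (median -0.03). All tested genes with a mean of at least 1 TPM had 541 higher and 1080 lower calls of 15181 (3.56% and 7.11%, median -0.10). The LINC genes had the highest share of lower calls (15.7%) and the lowest median among these 4 classes, and the difference between classes was not tested. With the block, 32% of LINC genes, 19.4% of antisense genes, 15.4% of divergent transcripts, 18.2% of small RNA hosts and 17.7% of all these genes were called lower. Against DHT, 5.62% of LINC genes and 1.85% of antisense genes were called higher with BIC (1.58% of all these genes). With ENZ these shares were 10.7% and 7.08% (5.03%), and with APA 11.2% and 4.31% (4.55%). Small RNA hosts lay near the LINC genes, with 4.55%, 9.09% and 9.09% called higher with BIC, ENZ and APA. Divergent transcripts had 0%, 7.69% and 1.92%. With the block the BIC shares of LINC and antisense genes were 15.7% and 6.46% (7.03%). Their ENZ shares were 32.6% and 20.9% (13.9%), and their APA shares 29.8% and 19.1% (13.9%). Small RNA hosts then had 6.82%, 20.5% and 22.7% called higher with BIC, ENZ and APA, and divergent transcripts 3.85%, 13.5% and 17.3%.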

How the data were processed

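Poly(A)-selected, stranded RNA libraries of 8 groups of 2 replicates (16 libraries) were analysed, with groups and replicate numbers from the labels. The authors checked reads with FastQC 0.11.9, trimmed them with Trim Galore 0.6.5, aligned them to GRCh38 with STAR 2.7.2b and quantified genes with RSEM 1.3.3, per the submitters' processing notes. The deposited values are TPM per gene symbol, which are scaled within a library and length-corrected, so that a rise of abundant transcripts lowers all others and depth is unknown. Reads that fit several genes are shared among them by a model. No column belonged to other samples (0 columns).

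Genes with a TPM of at least 1 in 2 or more libraries (16636, all 178 members among them) were tested on log2(TPM + 1) with limma 3.58.1 (trend) in R 4.3.3, in a fit of the 8 group means with 19 contrasts. A gene was called at a Benjamini-Hochberg adjusted p below 0.05 over all tested genes. The steps were run on simulated data with independent noise in each library, and the outcome is not given here. Those data had no replicate effect, so the run does not bear on the pairing described next. Replicate numbers paired the samples. Deviations from the group mean correlated between the same-numbered libraries of all 28 pairs of groups (r 0.204 to 0.635, above 0.1 in 28). The main fit leaves this pairing out, and values are from it unless the block is named. Fits with replicate number as a block are given beside it for counts and for some single genes, not for every call they change. Other alternatives were a pseudocount of 0.1, no filter, median-ratio scaling, only the groups compared, and each replicate left out.

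Positions, neighbours and promoters came from RefSeq tables of GRCh38.p14, in Python 3.11.15. Near-identical copies were sought with blastn 2.17.0 (98% identity over 200 bases) against GENCODE transcripts, in which LINC01667 and LINC02802 had no entry. The search did not tell copies from genes that overlap in position. Named genes were the 10 with the highest mean TPM, the 12 highest and 12 lowest of the calls in DHT against VEH, the 3 highest and 3 lowest calls with each antagonist, members of comparisons with 5 or fewer calls, KLK3 as a reference, and nearest genes of called members. KLK2, TMPRSS2 and FKBP5, in the same rule, are not described here. The members, lists and tests were chosen with earlier results of these data known. Some items are not reported here.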

Additional observations from a re-analysis of the deposited data

Results flagged for a closer look

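The response to DHT differed with an antagonist, by limma's test of the interaction over all genes, for 5 LINC genes. The interaction is the log2 change with DHT under the antagonist minus that without it, and every value below has a positive sign. LINC02672 had interactions of 2.84 with BIC, 2.82 with ENZ and 2.82 with APA (SE 0.55, limma adjusted p 0.038, 0.029 and 0.03, and 0.00011, 8.7e-05 and 9.9e-05 with the block). LINC02614 had 1.92, 2.19 and 2.12 (SE 0.34, limma adjusted p 0.025, 0.0083 and 0.011, and 7.9e-05, 2.1e-05 and 3.1e-05 with the block). LINC00648 had 1.20 with ENZ and 1.18 with APA (SE 0.25, limma adjusted p 0.04 and 0.046), and LINC01322 had 1.15 and 1.18 (SE 0.23, limma adjusted p 0.035 and 0.032). LINC00893 had 1.08 with APA (SE 0.20, limma adjusted p 0.022), and it shares up to 782 nearly identical bases with EOLA1 and other genes. Leaving out single libraries raised these p-values. Over all alternatives, the highest adjusted p of LINC02672 was 0.17 with BIC, 0.12 with ENZ and 0.14 with APA, and its calls were also lost without a filter on low values. LINC02614 kept its ENZ call with each library left out, and its highest was 0.12, 0.074 and 0.074. The highest adjusted p was 0.2 for LINC00648 with both, 0.22 and 0.16 for LINC01322, and 0.16 for LINC00893. With only the groups compared, every ENZ and APA call was lost and both BIC calls were kept (0.044 and 0.045). The VEH and DHT libraries are part of every one of these values, so they are not independent of each other.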

How the results depend on the processing

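The count of called members differed among the settings. The count over all genes is not given here for fits without a filter or with a library left out. A fall in those fits is therefore not a result about the members alone. With only the groups compared, 0, 7 and 0 of all genes were called with BIC, ENZ and APA against DHT. The block raised the calls among all genes too, from 10.3% to 27.4% in DHT against VEH. In DHT against VEH it was 34, with 22 without a filter, 65 with the replicate block and 3 with only the groups compared, and 10 to 14 with each library left out. In BIC.DHT, ENZ.DHT and APA.DHT against DHT it was 10, 25 and 23, with 32, 66 and 61 with the block, 0 each with only the groups compared, and 15 for APA without a filter. With a library left out it ran from 0 to 2 with BIC, 6 to 26 with ENZ and 7 to 18 with APA. The interactions had 2, 4 and 5 calls, with 18, 30 and 32 with the block, 2 (ENZ) and 3 (APA) without a filter, and 0 for ENZ and APA with only the groups compared. With a library left out they ran from 0 to 1, 1 to 3 and 0 to 2. The other 12 comparisons stayed at 0 called members under each setting run. Of 79 calls of named genes over all comparisons, 76 remained with a pseudocount of 0.1, 53 without a filter, 67 with median-ratio scaling, 79 with the block and 5 with only the groups compared, and 18 remained in every fit that left out a library. None of these changed sign (0 of 79). With 2 libraries per group, the spread of a gene rests on few values. TPM keeps no depth, so no counting error can be given for low members such as LINC01322.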
